A study of Mus musculus with 6 samples.

Results

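The 40 genes described here are a set of cell cycle genes, chosen by symbol from the 32285 genes in the count matrices, and followed across all marker-gated cell classes of 6 single-cell libraries. All 40 were matched by symbol to 1 matrix row each. Beside them stands the share of cells holding 2 or more UMIs of Mki67 and Top2a together, called cycling cells below. A UMI is a tag that counts 1 captured RNA molecule. The members fall into 5 roles: 4 G1/S cyclins and regulators, 7 replication licensing genes, 6 genes of the replication fork and nucleotide supply, 12 G2/M cyclins, kinases and checkpoint genes, and 11 kinetochore, spindle and chromosome genes.

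The libraries came from CD45+ EpCAM- 7-AAD- cells sorted from mouse colon tumours, with tumours of 5 mice pooled for each condition according to the series' design text. A Control and a SOX17KO library were made at each of 3 collections, labelled 1 week, 2 weeks or without a time and called 1-week, 2-week and untimed here. Which cells lost Sox17, by what driver, the tumour model, the strain and the age of the mice are not given in the sources used here. Each genotype has 1 library per collection, so collections serve as the replicates of a genotype, and a pool does not show the spread between mice. Sox17 had 7, 11 and 10 UMIs in the untimed, 1-week and 2-week Control libraries and 4, 20 and 3 in the SOX17KO ones, too few in sorted immune cells to check the genotype labels.

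A dividing cell licenses its replication origins by loading the Mcm helicase in G1, copies its DNA in S phase after cyclin E and E2F have released the G1 block, and then separates the copies in mitosis under cyclin B, Cdk1 and the spindle checkpoint. Transcripts of the replication genes rise at the G1/S boundary and those of the mitotic genes rise later, so together they mark cells in the cycle. Activated T cells and dendritic cell precursors are known to divide, whereas neutrophils and mature dendritic cells are largely post-mitotic.

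Replication and mitosis genes are known to be driven through different promoter letters, E2F-type sites for the former and the CHR with CCAAT boxes for the latter, and the promoters of the members were read for these. RefSeq promoter windows (build GRCm38.p6, 250 bases before to 50 after a start) were found for 33 of the 40 members, in 35 windows. The letters searched on both strands were TTTCCCGC, TTTGGCGC, TTTCGCGC and TTTGCCGC for E2F, TTTGAA for the CHR, and CCAAT. E2F letters stood in 7 of the 17 windows (41.2%) of members with G1/S, licensing or fork roles and in 1 of the 18 windows (5.56%) of members with G2/M or spindle roles, beside 2.26% of all 32851 windows. CHR letters showed the opposite split, with 1 of 17 windows (5.88%) against 13 of 18 (72.2%), beside 17.9% of all windows. CCAAT stood in 12 of 17 (70.6%) and 16 of 18 (88.9%) windows, beside 37.4% of all. CHR letters together with 2 or more CCAAT stood in 9 of the 18 windows of G2/M and spindle members and in 0 of the 17 others, beside 2.09% of all windows. Among the G1/S, licensing and fork members, the E2F letters lay mostly in licensing genes (Cdc6, Mcm3, Mcm5, Mcm6 and Mcm7), with Pclaf and Uhrf1. Ccne1, E2f1, Pcna, Rrm1, Rrm2, Tk1, Tyms and Mcm2 held none. The windows of E2f1, Cdc6 and Mcm7, and the Uhrf1 window with the match, lay wholly inside the annotated span of the gene. For E2f1, Cdc6 and Mcm7 the bases before that span were not read. A match is a description of letters, not of a bound site.

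The 250 bases before the start are shown for 2 licensing genes and 2 mitotic genes because they display both layouts. Capitals mark the letters searched, and in Mcm5 and in Mcm6 a pair of E2F matches on opposite strands overlap. Mcm6 (licensing helicase subunit, chr1:128359706-128359955, minus strand) held 3 E2F matches and 2 CCAAT matches, and Mcm5 (another subunit, chr8:75109259-75109508, plus strand) held 2 of each. Top2a (topoisomerase II alpha, which untangles chromosomes, chr11:99024190-99024439, minus strand) held 2 CHR and 6 CCAAT matches, and Cdk1 (the mitotic kinase, chr10:69352913-69353162, minus strand) held 2 CHR, 3 CCAAT and 1 E2F match.
Mcm6: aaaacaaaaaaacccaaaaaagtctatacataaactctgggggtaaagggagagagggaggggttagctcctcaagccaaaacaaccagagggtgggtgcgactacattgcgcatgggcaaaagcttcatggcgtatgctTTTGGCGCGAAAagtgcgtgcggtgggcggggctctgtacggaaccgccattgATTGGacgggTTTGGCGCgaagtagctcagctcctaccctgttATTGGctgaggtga
Mcm5: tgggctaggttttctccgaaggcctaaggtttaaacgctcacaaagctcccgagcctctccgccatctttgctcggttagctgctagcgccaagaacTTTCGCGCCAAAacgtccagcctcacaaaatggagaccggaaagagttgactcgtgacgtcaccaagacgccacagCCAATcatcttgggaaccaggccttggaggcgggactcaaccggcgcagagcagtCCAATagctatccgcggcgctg
Top2a: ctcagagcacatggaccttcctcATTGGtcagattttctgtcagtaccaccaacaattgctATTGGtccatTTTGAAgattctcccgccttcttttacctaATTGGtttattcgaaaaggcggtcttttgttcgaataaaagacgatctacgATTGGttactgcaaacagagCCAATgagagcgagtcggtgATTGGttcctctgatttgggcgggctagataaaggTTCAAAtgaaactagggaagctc
Cdk1: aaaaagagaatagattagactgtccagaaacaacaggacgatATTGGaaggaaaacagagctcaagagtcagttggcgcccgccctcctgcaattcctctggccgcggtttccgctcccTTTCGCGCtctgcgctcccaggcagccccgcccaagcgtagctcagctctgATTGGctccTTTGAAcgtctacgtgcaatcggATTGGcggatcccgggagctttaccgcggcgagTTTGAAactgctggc

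The files held 34607 cell barcodes and 210130933 UMIs in all, with 18281322 to 52150180 UMIs per library. After filtering, 32201 cells remained, of which 27904 were placed in 21 classes, 1291 carried markers of more than 1 lineage (mixed) and 2946 had too few markers for any class. No member gene was used in the gates. Any pair of libraries shared 4 to 13 barcodes. Despite the CD45+ sort, 2 to 245 cells per library carried fibroblast markers.

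Of the cells in the 21 classes, 2226 (7.98%) were cycling, and these held 17.9% of all UMIs, which is the level a gene spread evenly over RNA would have. Every member lay above that level. Mki67 and Top2a, which made the call, had 92.0% and 92.3% of their UMIs there, and these values are given as description. Of the other members, Cenpf, a kinetochore protein made in G2 and mitosis, had 97.2% of its UMIs in cycling cells. Ccna2, the cyclin of S phase and G2, had 96.7%, and Pclaf, a partner of the replication clamp, 94.9%. At the other end, Pcna, the clamp itself, had 41.8%, the licensing helicase subunit Mcm4 45.2%, Cenpa, the centromeric histone, 47.8%, and E2f1 50.2%. The median was 90.8% over the G2/M genes (69.2 to 96.7%) and 74.5% over the fork genes. It was 68.9% over the G1/S genes and 58.3% over the licensing genes (45.2 to 80.6%). The kinetochore and spindle genes had a median of 90.2% (47.8 to 97.2%), but it counts Mki67 and Top2a, whose values the call largely set. Pcna was also the member seen most often outside the cycling cells, with a UMI in 33.6% of them, against 0.269% for Ccna2 and 0.409% for Cenpf.

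**Figure D1:**
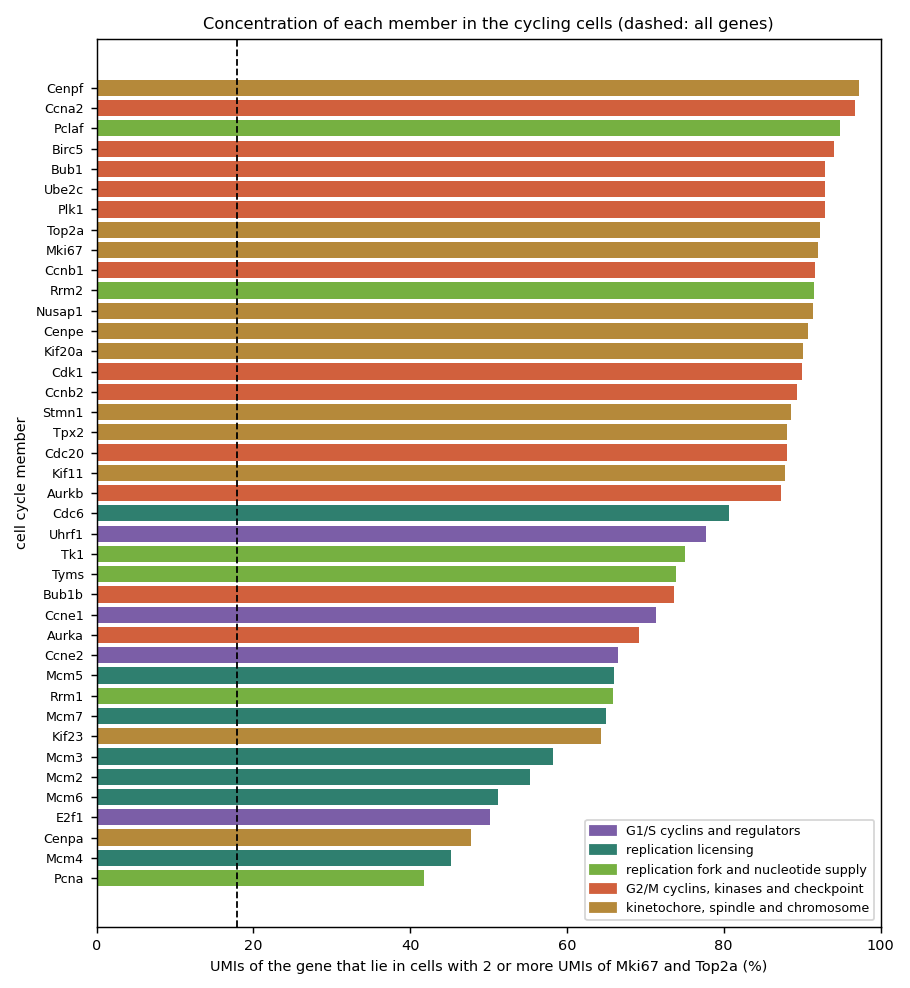
Percent of each member's UMIs (x axis) that lie in cells with 2 or more UMIs of Mki67 and Top2a, over all 21 classes and 6 libraries pooled, with bars coloured by role. The dashed line is the 17.9% of all UMIs held by those cells. G2/M and spindle genes lie mostly near the top and licensing genes in the lower part, and Pcna is lowest at 41.8%.

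Lymphoid and myeloid cells were also read apart. In cycling lymphoid cells Pcna had 58.8% of its lymphoid UMIs, and in cycling myeloid cells 17.7% of its myeloid UMIs. Mcm4 split in the same direction, 55.2% against 22.0%, and E2f1 74.8% against 25.5%. Cenpf had close values, 97.5% against 93.8%. Cycling cells held 28.6% of all UMIs in the lymphoid classes and 7.998% in the myeloid classes, so the levels to read these against differ.

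By share of cycling cells the classes spread widely. CD8 T cells ranged from 4.21% to 38.6% over the 5 libraries with 20 or more cells, and type 1 dendritic cells, the class that presents antigen to CD8 T cells, from 18.03% to 32.2% over 6. Fibroblasts reached 20.3% and conventional CD4 T cells 29.8%. Foxp3 regulatory T cells stood between 3.57% and 14.8%, gamma-delta T cells between 1.29% and 17.9% and NK cells between 3.12% and 16.6%. Macrophages (all kinds pooled) had 0.962 to 4.62%, Ly6c2 monocytes 0 to 1.95%, and neutrophils, which stand here for a class that should not divide, 0 to 1.83% at median depths of 1330 to 2142 UMIs per cell. Endothelial cells reached 20 cells in 1 library only, where 5 were cycling, and plasma cells in 2 (15.6% and 27.3%). With the classes ordered by median share, 15 of the 20 neighbouring pairs had no library in which their 95% Clopper-Pearson intervals lay apart, 1 of them with no library in common. The intervals of conventional CD4 T and other T cells lay apart in 3 of 5 libraries, and those of CD8 T and type 1 dendritic cells in the untimed SOX17KO library. These intervals cover counting error only.

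**Figure D2:**
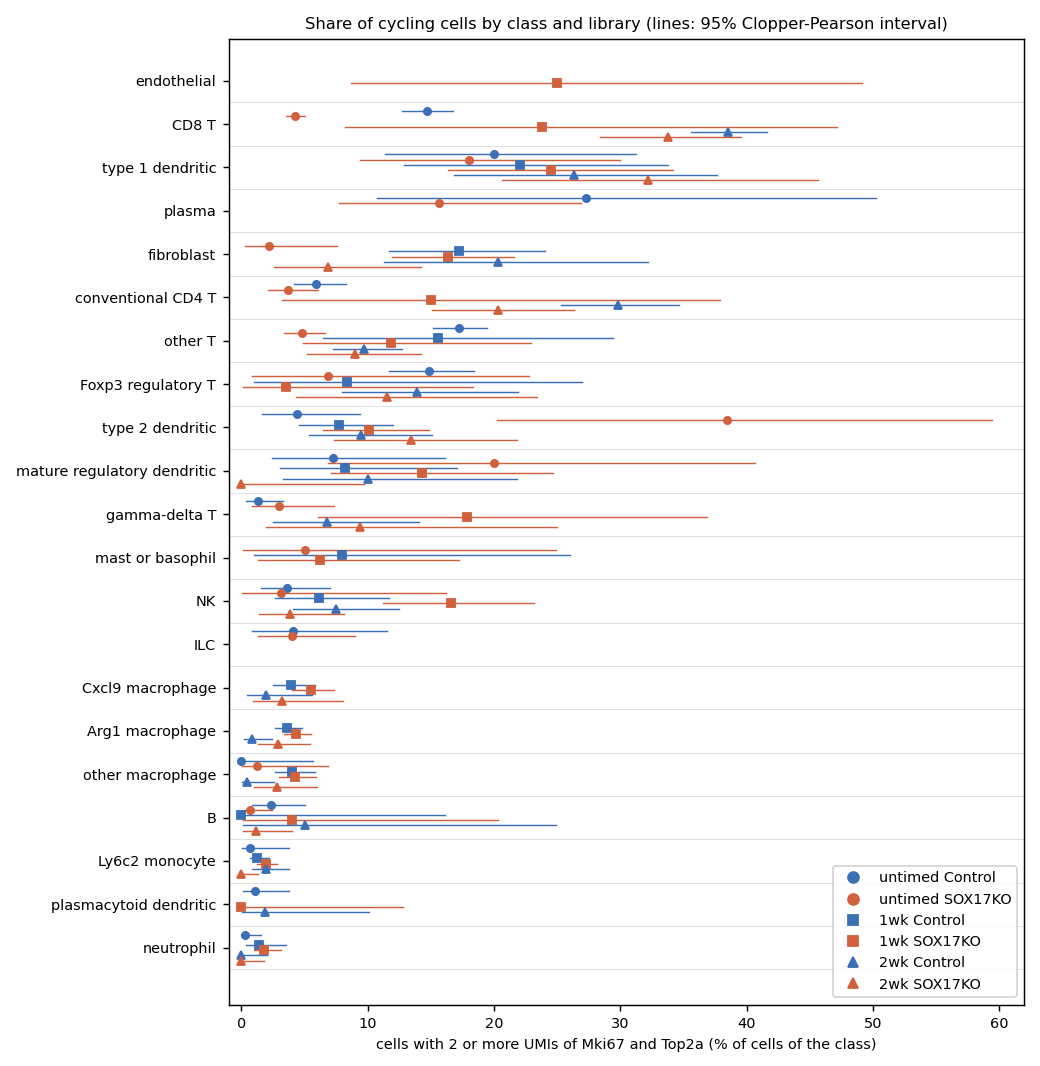
Share of cells with 2 or more UMIs of Mki67 and Top2a (x axis, percent) in each class and library with 20 or more cells, with lines for the 95% Clopper-Pearson interval. Blue is Control, orange SOX17KO, and the marker shape gives the collection. CD8 T cells spread from 4.21% to 38.6%, type 1 dendritic cells stay at 18.03 to 32.2%, and neutrophils lie at or below 1.83%.

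Depth moves with these shares. Cycling CD8 T cells had a median of 10142 UMIs and the other CD8 T cells 3543, and a deeper cell passes 2 UMIs more easily. With every cell thinned to 1000 UMIs the CD8 T shares were 1.01 to 14.2% and those of type 1 dendritic cells 1.47 to 10.3%, still above the thinned 0 to 0.738% of neutrophils in every library. Mature regulatory dendritic cells, which carry the Ccr7 and Fscn1 program of antigen-bearing migrants, lost the whole share on thinning. They held 7.25% and 20.0% cycling cells in the untimed Control and SOX17KO libraries, 8.22% and 14.3% at 1 week and 10.0% and 0% (0 of 36 cells, where 3 counts of the total would be 8.33%) at 2 weeks, and 0% in all 6 after thinning. Their 40 members summed to 208 to 631 CPM (UMIs of a gene scaled to the UMIs of its class, the usual CPM unit), beside 262 to 437 CPM in macrophages.

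CD8 T cells set much of the pool of cycling cells in the untimed and 2-week libraries. They gave 27.7% and 37.5% of the cycling cells in the untimed Control and SOX17KO libraries and 55.0% and 35.8% in the 2-week pair. In the untimed Control library other T cells gave more, 32.7%, and in its SOX17KO partner 10.7%. At 1 week, with 8 and 21 CD8 T cells in the Control and SOX17KO libraries, they gave 0.413% and 1.31%. There macrophages rich in Arg1 gave more than any other class (18.6% and 17.02%). Other macrophages gave 11.2% and 8.64%, fibroblasts 11.2% and 10.5%, and macrophages rich in Cxcl9 9.504% and 11.5%. The rest came from further classes, such as type 2 dendritic cells (7.02% and 5.76%) and NK cells (3.31% and 7.07%), and from cells in no single class. The share of cycling cells over all kept cells was 10.3% and 5.42% in the untimed Control and SOX17KO libraries, 4.61% and 5.56% at 1 week, and 15.7% and 9.33% at 2 weeks.

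Summed over the 40 members, levels did not rank the classes as the shares did. Type 2 dendritic cells (median share 9.76%) had a median of 854 CPM and mature regulatory dendritic cells (9.11%) 272 CPM, while gamma-delta T cells (6.74%) had 2021 CPM. In untimed conventional CD4 T cells the sum was 779 CPM in Control and 916 CPM in SOX17KO, opposite to the order of their shares (5.95% and 3.70%). CD8 T cells had 1846 and 722 CPM in the untimed Control and SOX17KO libraries, 3036 in the 1-week SOX17KO library, and 5144 and 4196 at 2 weeks. Type 1 dendritic cells had 1465 to 2555 CPM in all 6 libraries. Neutrophils had 149 to 209 CPM, and Ly6c2 monocytes 209 to 410. Among the classes with 3 or more libraries of 20 or more cells, CD8 T had the highest median level for 30 of the 40 members. Plasma cells and innate lymphoid cells, with 2 libraries each, were not ranked. The highest single level of Rrm2, 323 CPM, was in plasma cells of the untimed Control library. Of the other 10 members, mast cells or basophils led 4 (3 libraries of 20 to 48 cells), fibroblasts 3 (Plk1, Ccnb2 and Cdc20), type 1 dendritic cells Kif23 and Tk1, and Foxp3 regulatory T cells Mcm6.

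**Figure D3:**
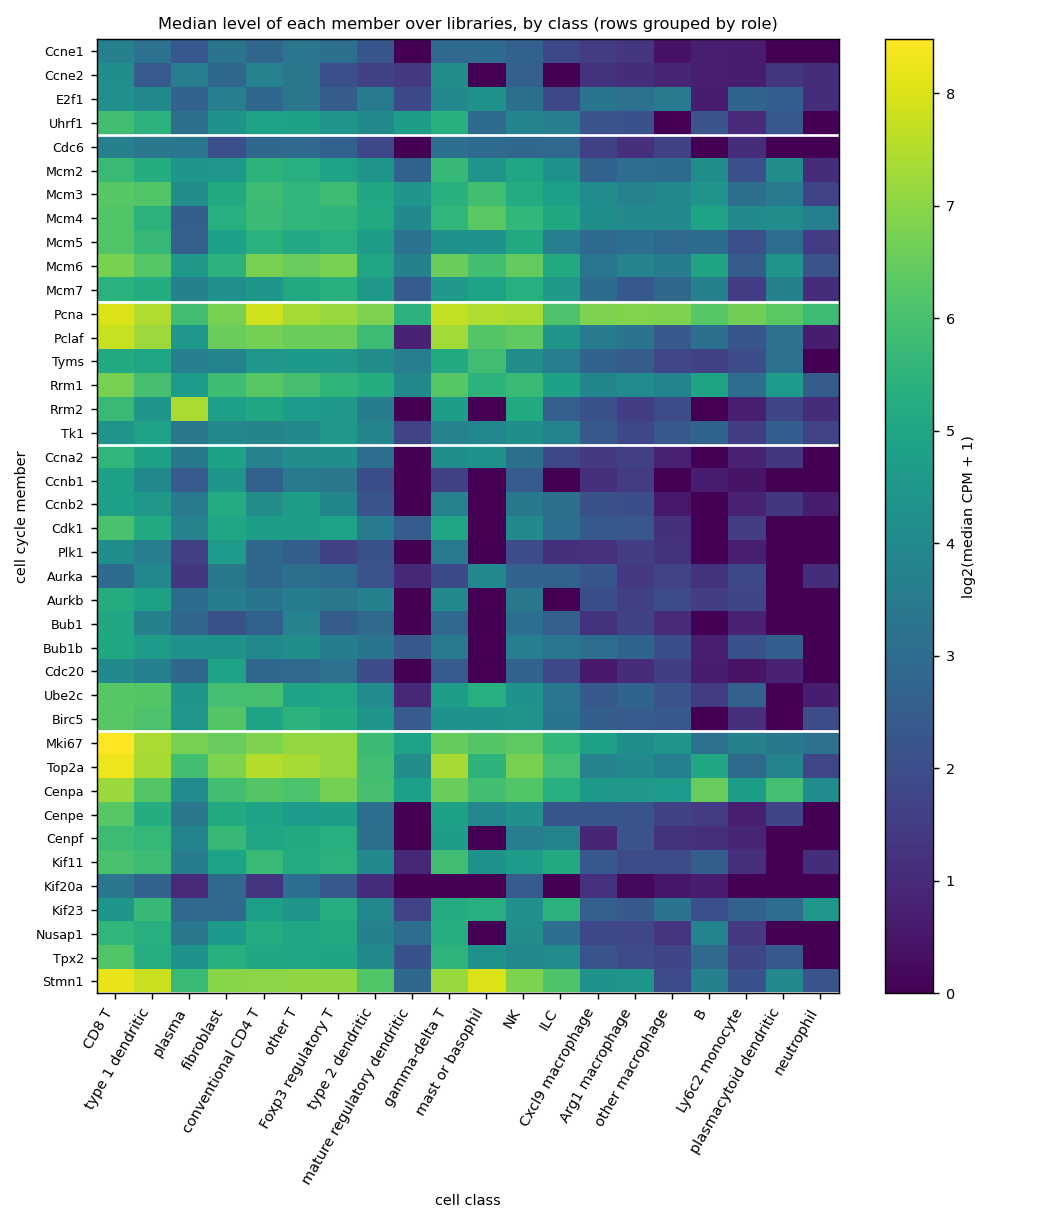
Median level over libraries of each of the 40 members (rows, grouped by role from G1/S at the top to spindle genes at the bottom) in each class (columns), as log2(median CPM + 1). Among classes with 3 or more libraries, CD8 T cells are highest for 30 members. Plasma and innate lymphoid cells, drawn from 2 libraries each, are not in that ranking. The columns of neutrophils, plasmacytoid and mature regulatory dendritic cells are dark for most G2/M genes while Pcna stays visible in every class.

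Pcna was at 26.3 to 389 CPM and never at 0 in the 96 class and library combinations. Mcm6 (0 to 233 CPM) and Cenpa (0 to 198 CPM) were at 0 in 1 combination each. The spindle motor Kif20a was at 0 in 35, the mitotic cyclin Ccnb1 in 32 and the polo kinase Plk1 in 29.

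Classes within the same libraries were compared first, with library as a term in the fit. Type 1 dendritic cells exceeded type 2 dendritic cells (the Cd209a and Clec10a class) for most members. Cenpf was at 23.5 and 65.9 CPM in type 1 cells of the untimed Control and SOX17KO libraries, 32.2 and 24.8 at 1 week and 66.6 and 118 at 2 weeks. In type 2 cells it was at 4.99 and 42.7, 9.20 and 3.16, and 9.35 and 6.34 CPM. The type 1 value was higher within each of the 6 libraries. The log2 fold change of Cenpf was 2.44 ± 0.32 (SE, edgeR adjusted p = 3.45e-05, n = 6 libraries), that of Cdc20, which activates the anaphase ubiquitin ligase, 2.30 ± 0.40 and that of Plk1 2.14 ± 0.39. In all, 34 of the 37 members tested were higher and 0 lower, where 33.2% of all 8732 genes tested were called. The members' median log2 fold change was 1.30 and that of all genes -0.01. The members that did not pass were Bub1 (0.77 ± 0.47), Cenpa (0.04 ± 0.15) and Mcm4 (0.32 ± 0.16). By role, the median was 1.83 for G2/M genes and 0.92 for licensing genes. With the 1-week libraries left out 15 members passed. With cells carrying a Cd3d, Cd3e or Cd3g UMI left out 33 passed.

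The untimed SOX17KO library stood apart among type 2 dendritic cells. There 10 of 26 cells were cycling (38.5%), against 4.41% of 136 in its Control, 7.69% and 10.1% at 1 week and 9.43% and 13.4% at 2 weeks. Mki67 in type 2 cells was 299 CPM in that library and 29.95 to 73.4 CPM in the other 5. A Cd3 UMI was found in 15.4% of the type 2 cells in that library, 11.0% in its Control and 0 to 2.26% in the timed libraries. Without those cells the share was 36.4%.

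Mature regulatory dendritic cells lay far below type 1 cells. Ccnb2 and Ccnb1, the B cyclins that drive mitotic entry, had 0 UMIs over all 6 libraries of the former and 100 and 76 UMIs in the latter. Set against 3 counts over the group, Ccnb2 was at least 18.3-fold lower and Ccnb1 at least 13.9-fold lower. Kif23, a motor needed for cytokinesis, was at 0 to 5.26 CPM against 42.5 to 66.5 CPM, with no overlap between the classes. Its log2 fold change was -4.60 ± 0.45 (edgeR adjusted p = 7.3e-07). Plk1 had 1 UMI against 72, a ratio of 39.6 (95% counting interval 6.88 to 1584). Here 34 of 35 members tested were lower, where 51.7% of all 8207 genes were called. In fits of mature regulatory dendritic cells alone, 6 members passed the filter on low counts. Most of the 35 thus entered through their level in type 1 cells, which largely set their direction, so the count is description. The members' median was -2.50, also with the B cyclins at their bound, and that of all genes -0.04. Uhrf1, which reads hemimethylated DNA behind the fork, did not pass (-0.53 ± 0.26). Among the 74 other cell cycle genes tested, 55 were lower and 8 higher. The higher ones included Cdkn1a (1.74 ± 0.20), the p21 inhibitor, which was at 501 CPM against 180 CPM over the pooled class, and Cdkn2b, the p15 inhibitor, with 48 UMIs against 2, a ratio of 43.7 (counting interval 11.4 to 371).

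Macrophages were above Ly6c2 monocytes for 15 of 32 members tested and below for 0, where 29.6% of all 10356 genes were called. Stmn1, a microtubule destabiliser, had the largest fold among them. It was at 1.97 CPM in untimed Control macrophages, 31.5 and 21.4 at 1 week and 11.7 and 14.5 at 2 weeks (Control, then SOX17KO), against 10.5, 2.18, 3.40, 14.9 and 0.638 CPM in the monocytes of those libraries. The order was reversed in the untimed Control and the 2-week Control library, and the fitted log2 fold change was 2.12 ± 0.44 (edgeR adjusted p = 0.00244). Among the licensing genes 5 of 6 tested passed, Mcm6 with 1.18 ± 0.20. Pcna did not differ beyond its error (0.05 ± 0.07). Without the 1-week libraries 0 members passed, without the 2-week libraries 26, and in DESeq2 3. In macrophages a Cd3 UMI was found in 13.9% of the cycling cells and in 2.99% of the rest, and their median depths were 10412 and 5771 UMIs. With cells holding a Cd3 UMI left out 14 members passed.

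NK cells were below CD8 T cells for 27 of 40 members and above for 0, where 19.7% of all 9149 genes were called. The median of the members was -1.41 and that of all genes -0.05. Cenpf had a log2 fold change of -2.39 ± 0.47 (edgeR adjusted p = 0.00239), Ccna2 of -2.38 ± 0.36 and Ccnb1 of -2.34 ± 0.48. Of the 12 G2/M genes 11 passed, and of the 6 fork genes 1. In the untimed SOX17KO library the order of the shares was close (3.12% of 32 NK cells and 4.21% of CD8 T cells), and without the 2-week libraries 1 member passed.

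CD8 T cells were above conventional CD4 T cells for 4 of 40 members, a share close to the 8.73% of all 10957 genes called. The 4 members were Ccne1 (1.19 ± 0.31, edgeR adjusted p = 0.0374), the cyclin that starts S phase, Cdc20 (1.18 ± 0.31), Mcm7 (0.93 ± 0.20) and Uhrf1 (0.68 ± 0.17). Estimates for the other 36 members lay between 0.16 and 1.30 and did not pass. Without the 2-week libraries 0 members passed, without the untimed pair 11, and without the 1-week library 2. With a mitochondrial limit of 5%, or without cells holding Lyz2 or C1q UMIs, 2 passed. Foxp3 regulatory T cells and conventional CD4 T cells could not be separated by any member. Of 38 tested 0 passed, where 7.25% of all 9123 genes were called, with 1 at an unadjusted p under 0.05 and 0 in DESeq2. The estimate for Mki67 was 0.06 ± 0.47, for Top2a -0.26 ± 0.39, for Pcna -0.26 ± 0.19 and for Ccne1 0.13 ± 0.62.

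**Figure D4:**
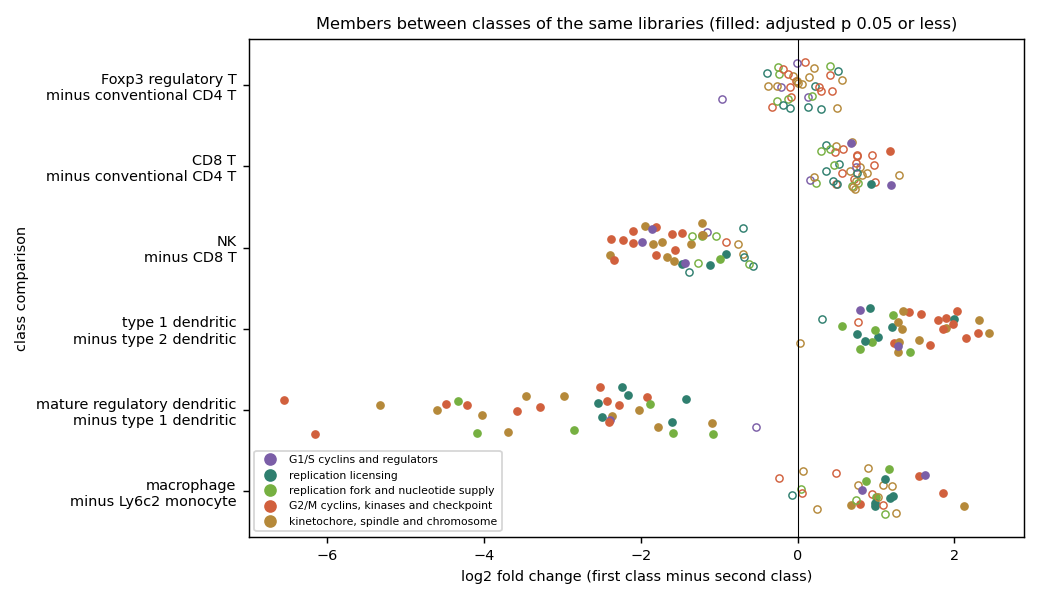
Log2 fold change of each member (points, coloured by role) in 6 comparisons of classes within libraries, filled where the edgeR adjusted p is 0.05 or less. Members of type 1 dendritic cells lie above those of type 2 cells, and members of mature regulatory dendritic and of NK cells lie to the left of 0. The leftmost points, Ccnb2 and Ccnb1, have 0 UMIs in one class, so their fitted positions are no measured fold.

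Collections were compared next, within each class. The comparison of 2 weeks with the untimed pair was added for the classes with under 20 cells in a 1-week library, after their shares had been seen. Collection day, time and cell number per library cannot be told apart. In CD8 T cells the shares were 14.7% and 4.21% in the untimed Control and SOX17KO libraries and 38.6% and 33.8% at 2 weeks. Pclaf stood at 66.9 (Control) and 18.2 CPM (SOX17KO) without a time and at 442 and 317 CPM at 2 weeks, so the groups did not overlap, and its log2 fold change was 3.31 ± 0.35 (edgeR adjusted p = 0.0303). Rrm2, the regulated subunit of ribonucleotide reductase, went from 18.1 and 6.20 to 96.8 and 76.7 CPM (2.89 ± 0.31). The licensing factor Cdc6 went from 4.11 and 2.16 to 28.8 and 19.6 CPM (2.88 ± 0.29). Here 26 of 40 members were higher and 0 lower, where 3.04% of all 12033 genes were called, and all 7 licensing genes passed. Among the other cell cycle genes 39 of 90 were higher, with Mybl2 (2.77 ± 0.32) and E2f8 (2.74 ± 0.29) the largest, and 0 were lower. This fit had 1 residual degree of freedom.

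Conventional CD4 T cells had shares of 5.95% (Control) and 3.70% (SOX17KO) without a time, and of 29.8% and 20.3% at 2 weeks. Ccna2, the cyclin of S phase and G2, was at 3.56 and 6.77 CPM and then at 65.2 and 24.5 CPM (3.15 ± 0.56, edgeR adjusted p = 0.0472). Of 39 members 9 were higher, where 1.66% of 9656 genes were called, and 25 passed with a mitochondrial limit of 5% or without doublet removal. In gamma-delta T cells 15 of the 24 members tested were higher, where 10.8% of 6191 genes were called, from 4 cycling cells in each untimed library, and 6 (Control) and 3 (SOX17KO) at 2 weeks. Pclaf was at 4.51 and 15.0 CPM and then 193 and 355 CPM (4.83 ± 0.42). DESeq2 called 3 of the 24.

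In Foxp3 regulatory T cells 2 of 15 members tested were higher at 2 weeks than at 1 week (5.38% of 4719 genes called). These members were Stmn1 (1.73 ± 0.47) and Pclaf (1.68 ± 0.44). In the untimed pair 2 were higher than at 1 week (6.84% called), Mki67 (2.04 ± 0.53) and Stmn1 (2.01 ± 0.47). DESeq2 called 0 in both, and the 1-week libraries held 24 and 28 of these cells. In other T cells, which hold T cells with neither or with both Cd4 and Cd8 UMIs, Kif23 alone of 40 was higher at 2 weeks (3.32 ± 0.61, 2.93% of 9846 genes called). It rested on 2 UMIs in the 1-week pair and 117 at 2 weeks, a ratio of 11.5 (counting interval 3.11 to 96.1), and 0 members passed without cells holding Lyz2 or C1q UMIs. Against 1 week the untimed pair had 0 of 40 called (4.47% of genes), with 11 at an unadjusted p under 0.05 and 1 in DESeq2.

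In NK cells the called members were lower at 2 weeks. At 1 week 6.11% and 16.6% of NK cells were cycling in the Control and SOX17KO libraries, and 7.51% and 3.82% at 2 weeks. Tyms, which makes thymidylate for DNA synthesis, was at 39.3 and 57.6 CPM at 1 week and 16.5 and 4.37 CPM at 2 weeks (-2.49 ± 0.50, edgeR adjusted p = 0.0154), with no overlap. Ccnb2 (-2.38 ± 0.58), Stmn1 (-1.66 ± 0.34), Birc5 (-1.54 ± 0.39) and Mki67 (-1.22 ± 0.32) were also lower, 5 of 33 members tested, where 7.89% of 8115 genes were called. Without the untimed pair 15 were lower, and in DESeq2 2. Between the untimed pair and 1 week Mcm5 was lower (-1.92 ± 0.48), 1 of 33, where 5.95% of genes were called, and DESeq2 called 0. The other cell cycle genes went with the members, with 9 of 65 lower at 2 weeks than at 1 week and 1, Ccnd3 (1.18 ± 0.23), higher.

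Fibroblasts that passed the sort had 7 of 40 members lower at 2 weeks than at 1 week and 0 higher, where 11.2% of 10573 genes were called. Tyms was at 66.3 and 54.2 CPM at 1 week and 13.1 and 5.09 CPM at 2 weeks (-2.94 ± 0.38, edgeR adjusted p = 7.01e-07). Cdk1 was at 79.3 and 49.0 CPM and then 31.1 and 11.2 CPM (-1.80 ± 0.31). Of the fibroblasts 26.6% and 10.2% carried a Cd3 UMI in the 2-week Control and SOX17KO libraries and 0.637% and 1.63% at 1 week, and without those cells 9 members were lower. DESeq2 called 1 in fibroblasts, and 4 passed with a mitochondrial limit of 5% and also without doublet removal. Ly6c2 monocytes had 1 of 20 members higher at 2 weeks, Rrm2 (3.27 ± 0.70, 10.9% of 9439 genes called), from 6 UMIs at 1 week and 18 at 2 weeks, and DESeq2 called 0. Neutrophils had 1 of 4 members lower, Mki67 (-2.55 ± 0.71, 23.5% of 5336 genes called), from 77 UMIs at 1 week and 3 at 2 weeks, a ratio of 0.142 (counting interval 0.0287 to 0.432). DESeq2 called 0 in neutrophils, as did the fit with stricter gates.

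In the other classes 0 members passed between 2 weeks and 1 week, with 0% of genes called in macrophages, 0.0654% in type 1 dendritic cells, 0% in type 2 dendritic cells, 0.0359% in mature regulatory dendritic cells and 2.93% in B cells. The members at an unadjusted p under 0.05 were 12 of 29, 5 of 36, 0 of 31, 0 of 6 and 1 of 8, and DESeq2 called 0 in each. Between the untimed pair and 1 week 0 passed in the same classes, with 0.527%, 1.24%, 2.66%, 2.65% and 3.03% of genes called. The counts at an unadjusted p under 0.05 were 9, 3, 2, 2 and 2, and DESeq2 called 2 in macrophages and 0 in the rest. In type 1 dendritic cells Mki67 differed by -0.02 ± 0.28 between 2 weeks and 1 week and by -0.04 ± 0.28 between the untimed pair and 1 week. Its level was 128 to 211 CPM in all 6 libraries. Over the classes where Mki67 did not pass, its estimates ran from -1.12 ± 0.59 in mature regulatory dendritic cells to 1.36 ± 0.54 in Foxp3 regulatory T cells between 2 weeks and 1 week. Those of Pcna ran from -0.55 ± 0.29 in other T cells to 0.71 ± 0.34 in Foxp3 regulatory T cells. Between the untimed pair and 1 week Mki67 ran from -0.52 ± 0.54 in mature regulatory to 1.15 ± 0.79 in type 2 dendritic cells, and Pcna from -1.12 ± 0.42 in NK cells to 0.13 ± 0.36 in Foxp3 regulatory T cells. Ccne1 was at -3.54 ± 1.14 in NK cells and did not pass.

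Between SOX17KO and Control, with collection as a term, 1 member passed in 1 of 14 classes. Mki67 in gamma-delta T cells was at 13.5 and 57.7 CPM in the untimed Control and SOX17KO libraries and at 88.8 and 175 CPM at 2 weeks. Its log2 fold change was 1.43 ± 0.38 (edgeR adjusted p = 0.0411, 1 of 24 members tested, 0.533% of genes called), from 50 UMIs in Control and 54 in SOX17KO. In this class the p-value rests almost wholly on a spread shared over genes, and hardly on that of Mki67 itself. DESeq2 did not call Mki67, nor did the fits without doublet removal, with stricter gates, without cells holding Lyz2 or C1q UMIs, without a filter or without the collection term.

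In CD8 T cells 39 of 40 estimates were negative, but 0 members passed and 0% of all genes were called. The odds ratio of the cycling share had a 95% interval of 0.200 to 0.327 in the untimed collection and 0.611 to 1.08 at 2 weeks, from counting error only. Mki67 stood at 155 (Control) and 50.3 CPM (SOX17KO) without a time and at 416 and 356 CPM at 2 weeks (-0.88 ± 0.33, edgeR adjusted p = 0.536). Pcna was at 131 and 123 CPM and at 389 and 306 CPM (-0.17 ± 0.23). The median of the 40 members was -0.93 and that of all genes -0.03, and 23 members had an unadjusted p under 0.05 in edgeR and 24 in DESeq2, which called 0. Without the filter on low counts 14 were lower. The median depth of CD8 T cells was 5366 UMIs in the Control library of the untimed pair and 3129 in its SOX17KO partner, and after thinning the shares were 5.13% and 1.01%.

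Other T cells and conventional CD4 T cells also had 0 members called (0% of genes in both), with 15 of 40 and 9 of 39 at an unadjusted p under 0.05 and 0 in DESeq2. Cycling other T cells numbered 218 of 1264 (17.2%) in the Control library of the untimed pair and 35 of 731 (4.79%) in its SOX17KO partner. Of these, 177 and 20 carried both Cd4 and Cd8 UMIs. Of cells with both, 48.6% of 364 were cycling in the untimed Control (median 15624 UMIs) and 14.3% of 140 in SOX17KO (7036 UMIs), and of cells with neither 4.56% of 900 and 2.54% of 591. The part of cell pairs in these values was not tested. In conventional CD4 T cells the shares were 29.8% in Control and 20.3% in SOX17KO at 2 weeks (odds ratio interval 0.392 to 0.908) and 5.95% and 3.70% in the untimed pair (0.303 to 1.17).

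In the remaining classes 0 members passed. The percent of genes called was 0.212% in Foxp3 regulatory T cells, 0% in NK cells, 0.214% in B cells, 0.787% in neutrophils, 0.0106% in Ly6c2 monocytes, 0% in macrophages, 0% in type 1 and 0% in type 2 dendritic cells, 0.0179% in mature regulatory dendritic cells and 0.312% in fibroblasts. The members at an unadjusted p under 0.05 were, in that order, 2 of 15, 5 of 33, 0 of 8, 0 of 4, 0 of 20, 0 of 29, 0 of 36, 0 of 31, 3 of 6 and 9 of 40, and DESeq2 called 0 in each. Over the 13 classes apart from B cells, which lacked Mki67 after the filter, its estimates ran from -0.88 ± 0.33 in CD8 T cells to 1.43 ± 0.38 in gamma-delta T cells. Those of Top2a ran from -2.42 ± 0.82 in mature regulatory dendritic cells to 1.11 ± 0.35 in gamma-delta T cells, and those of Pcna from -0.57 ± 0.31 in neutrophils to 0.35 ± 0.36 in B cells. Ccne1 was tested in 5 classes, from -1.30 ± 0.57 in conventional CD4 T cells to 0.45 ± 0.66 in NK cells.

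Within single collections the shares of some classes had odds ratio intervals that left out 1. NK cells at 1 week had 8 of 131 cycling cells in Control and 27 of 163 in SOX17KO (odds ratio interval 1.28 to 8.05), while at 2 weeks the order was 7.51% and 3.82%. Fibroblasts had 17.2% and 16.3% at 1 week and 20.3% and 6.82% at 2 weeks (0.0846 to 0.879). Ly6c2 monocytes had 1.95% in Control and 0 of 279 in SOX17KO (where 3 counts of the total would be 1.08%) at 2 weeks. Macrophages had 0.962% and 2.93% at 2 weeks (1.24 to 8.81) and, without cells holding a Cd3 UMI, 0.292% and 2.44%. Each of these compares 1 library with 1 library, so the intervals describe those libraries.

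**Figure D5:**
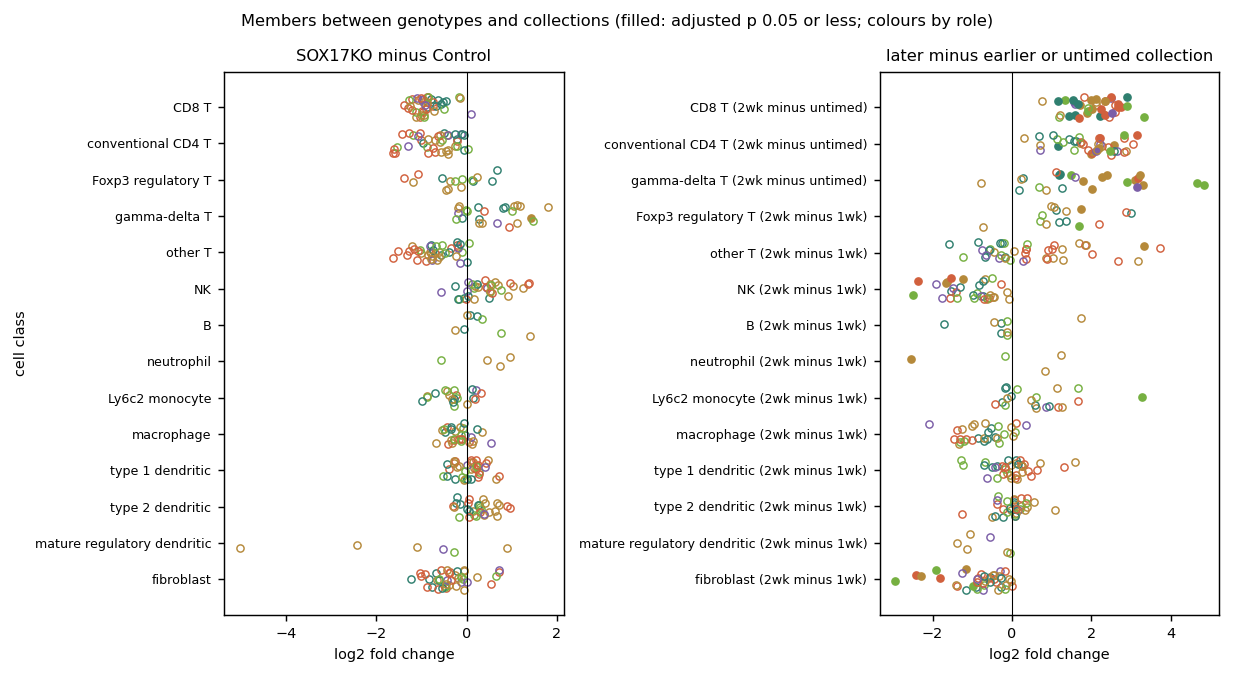
Log2 fold change of each member tested (points, coloured by role as in the plot of class comparisons) between SOX17KO and Control (left) and between 2 weeks and 1 week or the untimed pair (right), by class, filled where the edgeR adjusted p is 0.05 or less. On the left 1 point is filled, Mki67 in gamma-delta T cells, and on the right most filled points belong to T cells at 2 weeks against the untimed pair.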

How the data were processed

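The 6 droplet libraries (10x Genomics 3' v3) came from sorted CD45+ cells, 1 per genotype and collection. The deposited matrices hold raw UMI counts per gene and called cell, made by the authors with Cell Ranger, 7.0.1 per the file headers and 6.0.1 per the submitters' processing notes, on mm10. Whether intronic reads were counted and the annotation release are not given in the sources used here. Nothing was normalized before deposit.

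Cells with under 200 genes or over 10% mitochondrial UMIs were left out, and doublets were scored against simulated pairs in each library and removed at 0.8% per 1000 barcodes. Cells were placed in classes by counting detected lineage markers. The marker lists were written before the gates, whose thresholds were set with the data in view. No member gene was used. The 40 members and the lists were chosen with earlier results of these data known.

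UMIs were summed per library and class, and edgeR 4.0.16 (TMM, filterByExpr, quasi-likelihood test, R 4.3.3) was fitted on all genes, for classes with 20 or more cells per library, with Benjamini-Hochberg adjustment over all genes tested and a threshold of 0.05. Genotype fits had collection as a term, collection fits genotype, and class fits library. Genotype and collection fits had 1 or 2 residual degrees of freedom, and class fits, with 2 class sums per library, had more. The p-values measure the spread between these libraries, which are pools of mice, and not between mice. The quasi-likelihood fit shares this spread over genes. In gamma-delta T cells the p-values rest almost wholly on that shared spread, so a gene's own spread between libraries hardly enters. Fold changes are log2 with the standard error. Shares have Clopper-Pearson intervals. PCR and cell sampling add error that these do not cover. The genotype fit was tested on simulated counts of macrophages and type 1 dendritic cells in all 6 libraries, with no collection difference built in. Other fits, including those with 1 residual degree of freedom, were not tested in this way.

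In each comparison the members named are those called, up to 6 in each direction by size, with Mki67, Top2a, Pcna and Ccne1 where fewer than 4 were called, and up to 4 other cell cycle genes in each direction. Other settings tried were DESeq2 1.42.0, no filter on low counts, each collection left out, a mitochondrial limit of 5%, no doublet removal, stricter gates, no collection term, thinning to 1000 UMIs before or after gating, other UMI thresholds and gene sets for the share, and members summed without Stmn1, Pcna and the Mcm genes. The comparison of 2 weeks with the untimed pair, and leaving out cells with another lineage's marker (Lyz2 or C1q UMIs in T cells, Cd3 UMIs in others), and mean share differences with a collection left out, were chosen after seeing the data.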

Additional observations from a re-analysis of the deposited data

Results flagged for a closer look

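The share of cycling cells moved the same way between SOX17KO and Control in each of the 3 collections in 4 classes, downward in 2 and upward in 2, and whether the classes differ was not tested. The other classes with 20 or more cells in all 6 libraries were NK, B, type 1 dendritic and mature regulatory dendritic cells. Each of them had both signs, as did pooled macrophages, mixed cells and cells with too few markers. How many classes would keep 1 sign without a genotype difference was not tested. Over the collections the mean difference (SOX17KO minus Control) was -5.01 percentage points in Foxp3 regulatory T cells and -5.63 in other T cells. It was 1.28 points in other macrophages and 13.5 in type 2 dendritic cells. In other T cells the differences were -12.5, -3.69 and -0.75 points (untimed, 1 week, 2 weeks), and the mean was -2.22 without the untimed pair. In type 2 dendritic cells they were 34.05, 2.40 and 3.97 points, with 26 cells in the untimed SOX17KO library, and the mean was 3.18 without that pair. Foxp3 regulatory T cells had -7.93, -4.76 and -2.35 points, the 1-week value from 2 of 24 against 1 of 28 cells. Their odds ratio intervals held 1 in each collection (0.0480 to 1.76, 0.00666 to 8.45 and 0.241 to 2.39 in that order). Other macrophages had 1.27, 0.24 and 2.33 points, and the mean was 0.753 without the 2-week pair. The shares behind these were low, 0% and 1.27% in the untimed Control and SOX17KO libraries and 0.474% and 2.80% at 2 weeks. The odds ratio interval held 1 in each collection (0.723 to 280 at 2 weeks). Pooled macrophages went the other way in the untimed pair, with 2.41% in Control and 1.19% in SOX17KO.

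The summed level of the 40 members did not follow the upward shares in every collection. In other macrophages it was lower in SOX17KO in each collection, at 322 and 266 CPM (Control, then SOX17KO) in the untimed libraries, 603 and 456 CPM at 1 week and 290 and 265 CPM at 2 weeks. In type 2 dendritic cells it was 615 and 2347, 846 and 862, and 1163 and 728 CPM in the same order.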

How the results depend on the processing

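Counts of members called were recomputed under every setting for 42 comparisons. They stayed within 1.5 times the reported count in 248 cases and moved in 76, in 27 comparisons. For single named genes 1645 values kept their side of the threshold, 158 lost it and 18 gained it. No value that passed in the main fit or in the other setting reversed direction between them. Sign changes of values that passed in neither were not counted. Where the cause of a change is not plain from fewer genes or samples, the cause was not tested. For SOX17KO against Control, no filter on low counts gave 14 in CD8 T, 7 in other T, 2 in mature regulatory dendritic and 1 in fibroblast. The call of Mki67 in gamma-delta T went to 0 without doublet removal, with stricter gates, without cells holding another lineage's marker, without a filter, in DESeq2 and without the collection term (no replicate block), which changed no other genotype count. In mature regulatory dendritic cells leaving out a collection gave 0 to 3.

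For 2 weeks against the untimed pair, conventional CD4 T gave 25 at the mitochondrial limit of 5%, 25 without doublet removal, 29 with stricter gates, 14 without other-lineage cells and 32 without a filter, and gamma-delta T gave 3 in DESeq2. For 2 weeks against 1 week, the mitochondrial limit gave 1 in Foxp3 regulatory T, 4 in other T and 4 in fibroblast. No doublet removal gave 2 in other T, 2 in neutrophil, 2 in Ly6c2 monocyte and 4 in fibroblast. Stricter gates gave 7 in Foxp3 regulatory T, 3 in other T, 10 in NK and 0 in neutrophil, and leaving out other-lineage cells 5 in Foxp3 regulatory T and 0 in other T. No filter gave 5 in Foxp3 regulatory T, 8 in other T, 13 in NK, 4 in Ly6c2 monocyte, 3 in macrophage, 2 in type 1 dendritic and 16 in fibroblast. DESeq2 gave 0 in Foxp3 regulatory T, neutrophil and Ly6c2 monocyte, 2 in other T, 2 in NK and 1 in fibroblast. Without the untimed pair the counts were 9 in other T, 15 in NK, 11 in macrophage and 5 in type 1 dendritic.

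For the untimed pair against 1 week, the mitochondrial limit gave 2 in other T and no doublet removal 2 in other T and 2 in NK. Stricter gates gave 4 in Foxp3 regulatory T and 9 in NK, and leaving out other-lineage cells 1 in B. No filter gave 3 in other T, 14 in NK, 5 in macrophage, 2 in type 1 dendritic, 2 in type 2 dendritic and 1 in mature regulatory dendritic. DESeq2 gave 0 in Foxp3 regulatory T and NK, 1 in other T and 2 in macrophage, and without the 2-week libraries NK gave 5. Between classes, CD8 T against conventional CD4 T gave 2 at the mitochondrial limit, 2 without other-lineage cells, 26 without a filter and 0 to 11 with a collection left out. NK against CD8 T gave 1 to 38 and type 1 against type 2 dendritic 15 to 33 with a collection left out. Macrophage against monocyte gave 25 without a filter, 3 in DESeq2 and 0 to 26 with a collection left out. Classes fitted on 2 collections had none left out, because 1 collection leaves no residual degrees of freedom. Classes with few cells limit what could be tested: 4 members passed the filter in neutrophils, 6 in mature regulatory dendritic cells and 8 in B cells.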

Other observations

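Cells that fell in no single class also held members. Of mixed cells, which carried markers of more than 1 lineage, 31.5% and 22.7% were cycling in the untimed Control and SOX17KO libraries, 15.3% and 19.2% at 1 week and 33.6% and 34.7% at 2 weeks, and 65.8% to 96.8% of them held a Cd3 UMI. Their cycling cells had a median of 18968 UMIs. Cells with too few markers for a class had 0 to 3.43% cycling. Plasma cells of the untimed pair held 27.3% of 22 and 15.6% of 64 cycling cells, at median depths of 13116 and 16801 UMIs, and 27.3% and 40.6% of them held a Cd3 UMI. After thinning to 1000 UMIs their shares were 5% and 1.64%.

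Outside the members, Cdkn1a, the p21 inhibitor, was lower at 2 weeks than at 1 week in Foxp3 regulatory T cells (-2.09 ± 0.36), NK cells (-1.99 ± 0.45) and neutrophils (-0.73 ± 0.18), each past the threshold in edgeR. Ccnd2, a G1 cyclin, was lower at 2 weeks in Ly6c2 monocytes (-1.84 ± 0.21).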
